A study of Homo sapiens with 12 samples.

Results

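The genes described here encode 5 receptor chains through which growth factors and cytokines act on myeloid cells: CSF1R, CSF2RB, CSF3R, IL3RA and IL6R. They are 5 of the 19959 protein-coding genes of the annotation (GENCODE release 44, GRCh38). They were chosen by name, not by their measured values, though with earlier results of these data known. Each gene was given a window made of its body and 50 kb on either side of its canonical start site, and the H3K4me2 peaks that reached into these windows were taken as its peaks. The windows spanned 514.1 kb and held 211 of the 289523 peaks of the series, which fell into 54 of its 84577 regions. A region is a stretch built by merging peaks of all lists that overlap or touch. It belongs to a window that it reaches into, and a list holds it where any of its peaks lies in the region, which at a window's edge can be just outside the window.

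The cells were U-937, an established human monocytic cell line, called AML cells by the labels. They were treated for 24 hours with the vehicle DMSO, with all-trans retinoic acid (ATRA) at 0.1 µM, with Corin at 0.1 µM, or with ATRA and Corin together at 0.1 µM each. ATRA is the natural ligand of the retinoic acid receptors, and Corin is a synthetic compound that inhibits both the demethylase LSD1 and the deacetylases of the CoREST complex, so DMSO cells had neither agent. The labels print the same 0.1 µM beside DMSO. Each of the 4 treatments had 2 H3K4me2 libraries and 1 input library, 12 libraries in all. The labels name a single cell line and do not say whether the 2 libraries came from separate cultures. The values used are 4 peak lists, 1 for each treatment, pooled over its libraries. With 1 list per treatment there is no spread between replicates and no p-value, and every difference given is a difference between lists. The fold enrichment over input and the −log10 q of a peak are the authors' values and are read only within a list.

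H3K4me2 is dimethylation of lysine 4 on histone H3, a mark of promoters and enhancers, and LSD1 removes it. The 5 receptor chains belong to different families. CSF1R is the receptor tyrosine kinase for CSF1 (M-CSF) and IL-34 and is needed for monocytes and macrophages. CSF3R, the G-CSF receptor, acts in granulocyte production. CSF2RB is the signalling beta chain shared by the receptors for GM-CSF, IL-3 and IL-5, and IL3RA (CD123) is the alpha chain that gives the IL-3 receptor its specificity. IL6R binds IL-6 and signals through the partner chain IL6ST (gp130). The cytokine receptors of this group work through JAK kinases and STAT factors, whereas CSF1R carries its own kinase.

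Several DNA stretches recur in the results. The first 6 sequences are windows of 201 bp (hg38) centred on a peak summit in a region whose presence or extent differed between the lists, with the strand given as that of the gene. CSF1R intron 1 is the chr5:150082113-150082313 stretch on the minus strand at the ATRA summit. CSF1R upstream intron is chr5:150106324-150106524 on the minus strand, a region found in the ATRA+Corin list alone. CSF2RB intron 1 is chr22:36921659-36921859 and CSF2RB intron 13 is chr22:36936897-36937097, both on the plus strand and both held by the ATRA and ATRA+Corin lists alone. IL3RA intron 6 is chrX:1355472-1355672 on the plus strand, held by the Corin and ATRA+Corin lists alone. IL6R upstream is chr1:154391658-154391858 on the plus strand, held by every list but DMSO. The last 3 lie before the start sites, under or beside a peak that all 4 lists held, and come from RefSeq (GRCh38.p14): chr5:150086608-150086804 for CSF1R, chrX:1336535-1336615 for IL3RA and chr1:154405093-154405192 for IL6R. They are the part of the 250 bases before each start that no annotated exon overlaps. RefSeq promoters were matched for 4 of the 5 genes, the exception being CSF2RB, and that of CSF3R lay wholly in annotated exons and is not printed. Capitals mark matches to GAGGAA or its complement TTCCTC (the core read by PU.1), TGTGGT (the core read by RUNX factors) or TTGCNNAA (read by C/EBP factors).
CSF1R intron 1: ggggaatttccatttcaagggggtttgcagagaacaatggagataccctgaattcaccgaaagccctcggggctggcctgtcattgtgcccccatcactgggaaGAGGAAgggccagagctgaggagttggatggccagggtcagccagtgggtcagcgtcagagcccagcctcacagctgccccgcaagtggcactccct
CSF1R upstream intron: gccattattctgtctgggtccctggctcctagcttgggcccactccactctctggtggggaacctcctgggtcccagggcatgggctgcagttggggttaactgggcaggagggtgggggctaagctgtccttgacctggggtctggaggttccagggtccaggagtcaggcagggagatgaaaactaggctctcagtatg
CSF2RB intron 1: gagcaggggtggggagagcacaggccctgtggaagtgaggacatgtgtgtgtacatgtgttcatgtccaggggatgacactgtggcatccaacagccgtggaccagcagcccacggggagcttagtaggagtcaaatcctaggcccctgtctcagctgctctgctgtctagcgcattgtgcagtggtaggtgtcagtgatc
CSF2RB intron 13: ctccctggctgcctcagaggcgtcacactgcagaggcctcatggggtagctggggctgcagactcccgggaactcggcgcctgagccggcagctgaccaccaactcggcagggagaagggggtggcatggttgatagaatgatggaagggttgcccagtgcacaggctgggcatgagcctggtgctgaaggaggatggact
IL3RA intron 6: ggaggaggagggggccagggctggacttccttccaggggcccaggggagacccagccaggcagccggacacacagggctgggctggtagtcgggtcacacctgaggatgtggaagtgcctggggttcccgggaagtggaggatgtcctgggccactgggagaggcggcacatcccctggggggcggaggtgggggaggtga
IL6R upstream: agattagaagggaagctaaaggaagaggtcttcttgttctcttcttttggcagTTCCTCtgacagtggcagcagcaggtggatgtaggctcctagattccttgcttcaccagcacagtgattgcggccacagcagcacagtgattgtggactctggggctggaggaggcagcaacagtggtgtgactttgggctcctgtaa
CSF1R promoter: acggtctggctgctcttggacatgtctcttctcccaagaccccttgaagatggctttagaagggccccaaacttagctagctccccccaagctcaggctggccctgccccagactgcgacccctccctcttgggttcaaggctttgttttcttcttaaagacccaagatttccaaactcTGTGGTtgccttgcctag
IL3RA promoter: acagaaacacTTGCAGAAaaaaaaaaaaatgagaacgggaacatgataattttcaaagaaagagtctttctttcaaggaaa
IL6R promoter: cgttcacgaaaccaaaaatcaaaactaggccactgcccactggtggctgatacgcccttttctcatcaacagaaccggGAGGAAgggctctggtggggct

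These 3 motifs were searched on both strands, together with AAATCAC, the core read by GFI1, a repressor that recruits LSD1. GAGGAA had 1 match in the CSF1R intron 1 window and 1 in the IL6R upstream window, and the other 4 summit windows held none of the motifs. The same letters occur in 19.1% of the 83969 summit windows of the ATRA+Corin list and in 23.6% of 35116 RefSeq promoter stretches of 250 bases, so such matches are common. In the 250 bases before the CSF1R start, GAGGAA matched at 2 places, both in the 53 bases next to the start that are not printed because exons overlap them. The 1 match to TGTGGT is printed, and this motif occurs in 10.98% of promoter stretches and 14.9% of summit windows. The IL3RA stretch held 1 match to TTGCNNAA (9.05% of promoter stretches, 9.93% of summit windows). The IL6R stretch held 2 matches to GAGGAA, of which 1 is printed. AAATCAC was found in none of these windows or promoters (2.74% of promoter stretches, 2.60% of summit windows). Retinoid receptors read direct repeats of a hexamer. Repeats of AGGTCA with itself or with its variants GGGTCA and also AGTTCA and lastly GGTTCA, in any pairing, with spacers of 1, 2 or 5 bases, were found in none of them either. Of the promoter stretches, 0.0968%, 0.0313% and 0.0740% held a repeat with these spacers, and of the summit windows 0.0881%, 1.19% and 0.0762%. These letter matches describe the windows and show no binding.

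Across the series, peaks numbered 65172, 66385, 73997 and 83969 in the order DMSO, ATRA, Corin, ATRA+Corin, which is also the order of every run of 4 values given without names. The depth of the H3K4me2 libraries, estimated from the lowest background in the peaks' own values, was 1.02 (ATRA), 1.10 (Corin) and 1.199 (both agents) times that of DMSO. This estimate takes fragment length to be equal in all lists, which the sources used here do not give. Start sites of 10 monocytic and granulocytic marker genes were under a peak for 8, 8, 7 and 4 genes in the same order, those of MPO and FCGR1A in no list, against 1, 0, 1 and 1 of 10 markers of other lineages. Those of CEBPA, LYZ and CD33 were under a peak in every list but ATRA+Corin.

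H3K4me2 covered more of the receptor windows after each treatment than after DMSO. The number of peaks in the windows was 46 with the vehicle, 52 with ATRA, 52 with Corin and 61 with the combination. The lists held 33, 42, 42 and 51 of the 54 regions, or 32, 42, 40 and 51 where only peaks that reach into the window are counted, and the peaks covered 49.9, 66.6, 75.2 and 91.3 kb, or 9.71%, 13.0%, 14.6% and 17.8% of the windows. Every one of the 5 genes had its shortest covered length after DMSO and its longest after the combination. The lists as a whole covered 73.4 Mb, 83.7 Mb, 95.02 Mb and 108.5 Mb, so coverage grew genome-wide as well. The median peak width in the windows was 718.5, 1025, 949 and 968 bp, beside 741, 870, 872 and 848 bp in the whole lists.

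**Figure D1:**
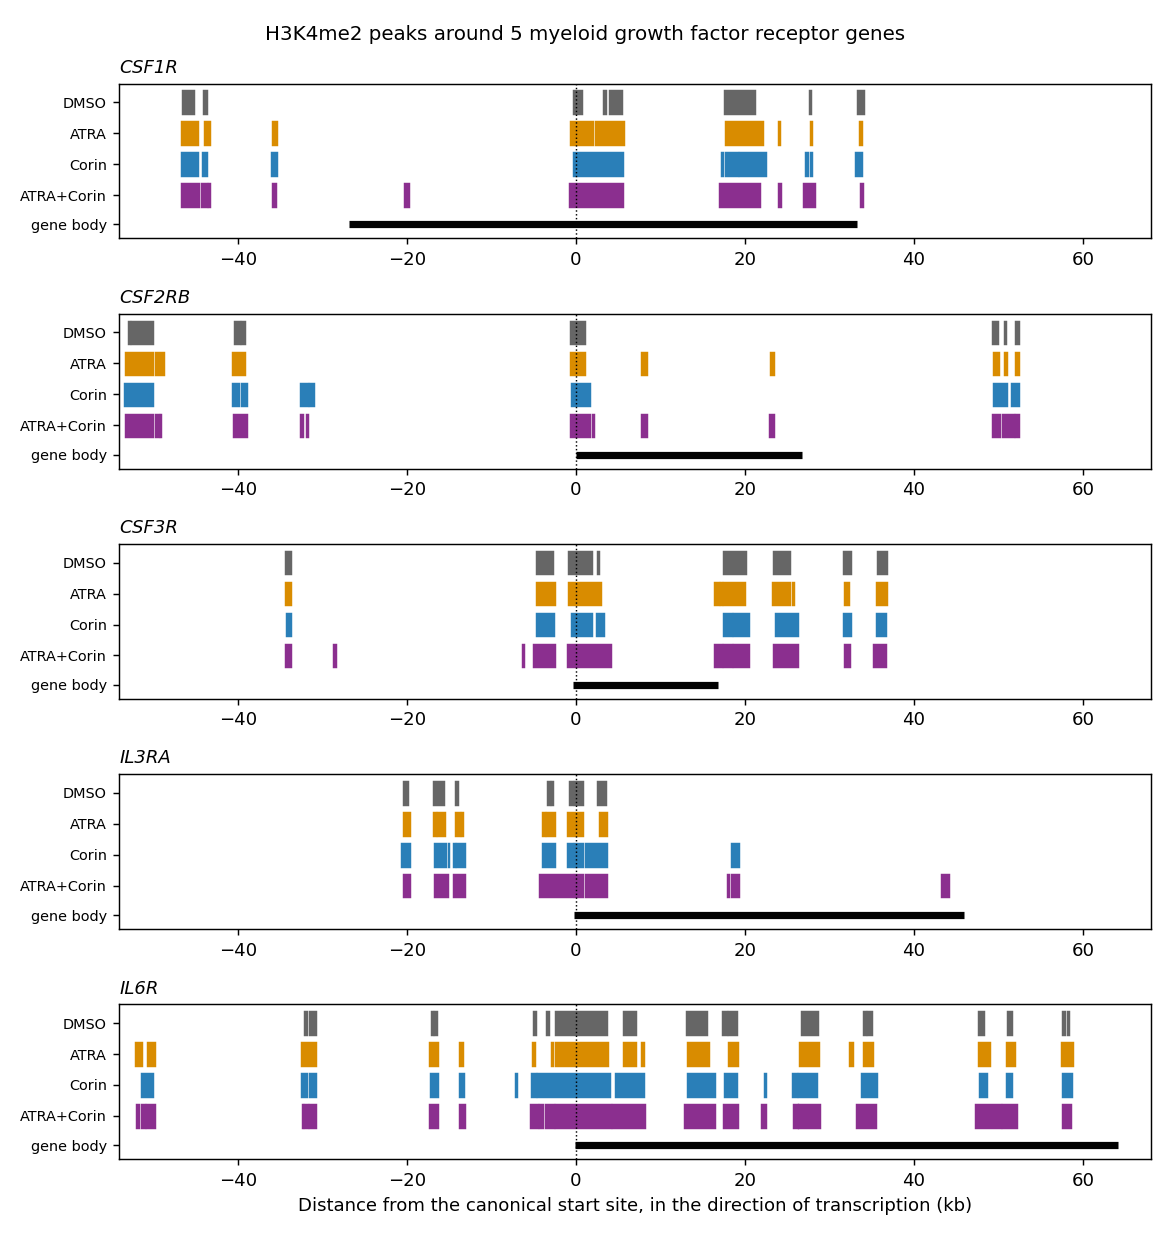
H3K4me2 peaks of the 4 lists (rows) around the canonical start site of each receptor gene, drawn as blocks against distance from the start site in kb in the direction of transcription, with the gene body as a black bar. A peak lies over the dotted start line in all 4 lists for each gene, and the added blocks of the treated lists, such as the ATRA and ATRA+Corin blocks at 8.13 kb and 23.4 kb in CSF2RB, stand where the DMSO row is empty.

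No receptor region held by the DMSO list was missing from a treated list. All 33 DMSO regions of the receptor windows were held by all 4 lists (100%, 95% Wilson interval 89.6 to 100%). Over all protein-coding windows this was so for 86.6% of 42442 DMSO regions. With only peaks of a −log10 q of at least 5 kept in every list, 2 receptor regions were lost after ATRA (5.13% of regions held by either list, beside 3.96% over all windows), 1 after Corin (2.44% beside 5.61%) and 1 after both (2.27% beside 3.37%). The intervals on shares cover counting error only and not the spread between cultures. They treat regions as independent, although regions of the same gene lie near each other, some side by side. The intervals are therefore likely too narrow, and no excess over all windows can be read from them. The remaining 21 regions all lacked a DMSO peak: 6 were held by ATRA+Corin alone, 5 by ATRA and ATRA+Corin, 4 by Corin and ATRA+Corin, 3 by the 3 treated lists, 2 by Corin alone and 1 by ATRA alone. The group held by ATRA and ATRA+Corin made up 9.26% of the receptor regions (4.02 to 19.9%) against 3.42% of all regions in gene windows, and 3 of its 5 regions belonged to CSF2RB. The regions of ATRA+Corin alone made up 11.1% (5.19 to 22.2%) against 16.2%.

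**Figure D2:**
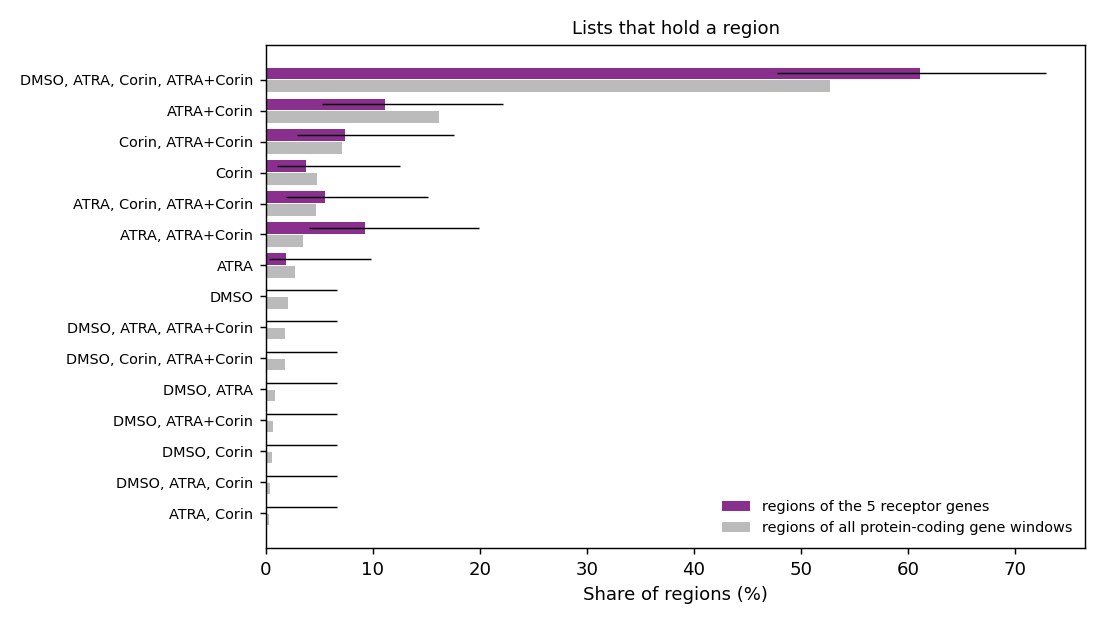
Share of regions (%) by the set of lists that hold them, for the 54 receptor regions (purple, with 95% Wilson intervals as black lines) and for all regions of protein-coding gene windows (grey). Regions held by all 4 lists lead both sets at 61.1% and 52.7%, and no receptor region falls in a set that holds DMSO without all 3 treated lists.

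A region was called gained where the first list of a comparison held a peak in it and the second held none, and lost in the opposite case. ATRA against DMSO gave 9 gained regions of 42 held by either list (21.4%, 11.7 to 35.9%), and none lost. Over all gene windows, 15.4% of regions were gained and 7.07% lost in this comparison. The gains lay at 4 genes, CSF2RB and IL6R with 3 each, CSF1R with 2 and CSF3R with 1, while 42% of all gene windows had a gained region and 24.8% a lost one. IL3RA had none. Corin against DMSO also gave 9 gained of 42 and none lost, near the 21.7% gained over all windows (6.92% lost). These lay at IL6R (5, of which 1 rests on a Corin peak just outside the window), CSF2RB (2), CSF1R (1) and IL3RA (1), and 54% of all windows had such a gain (25.8% a loss). The combination against DMSO gave 18 gained of 51 (35.3%, 23.6 to 49.0%), near the 34% over all windows, and none lost (0%, up to 7.005%, against 4.3%). All 5 genes had a gain, with 5 at CSF2RB, 4 at IL6R and 3 at each of the others, as did 67.8% of all windows (20.3% a loss). These 3 comparisons share the DMSO list. With only peaks that reach into the window, the gains against DMSO numbered 10, 8 and 19, the differences coming from the edge regions of CSF2RB and IL6R. The lists of greater estimated depth were the longer ones, and with fragments thinned to the shallowest list the gains remained 9, 9 and 18. This thinning only re-scored called peaks with a −log10 p under 60. It kept their widths, called no peaks anew and left 83065 of the 83969 ATRA+Corin peaks. The effect of depth on peak calling itself was not tested. In bulk chromatin, a mark in more of the cells and more of the mark in each cell cannot be told apart.

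The combination held more regions than either single agent. Against ATRA, 10 of 52 regions were gained (19.2%, 10.8 to 31.9%) and 1 was lost. Over all windows 27.8% were gained and 4.59% lost, 63.2% of windows had a gain and 21.6% a loss. The 10 lay at IL3RA (3), CSF2RB, CSF3R and IL6R (2 each) and CSF1R (1). Against Corin, 11 of 53 were gained (20.8%, 12.005 to 33.5%) and 2 were lost. Over all windows 23.3% were gained and 6.44% lost, 59% of windows had a gain and 28.7% a loss. The 11 lay at CSF2RB (4), CSF3R (3), CSF1R (2) and IL3RA (2), none at IL6R. The lost regions were a peak of ATRA alone in IL6R and peaks of Corin alone beside CSF2RB and IL6R.

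The length under peaks grew at each of the 5 genes. Against DMSO, the summed covered length was 1.33 times as long after ATRA, 1.51 times after Corin and 1.83 times after both. The same ratio for the whole lists, inside and outside gene windows, was 1.14, 1.29 and 1.48. The median gene window of the 17459 with a DMSO peak stood at 1.09, 1.23 and 1.36, beside 1.36, 1.64 and 1.84 for the median of the 5 receptor genes. Covered length was longer than after DMSO in 77.7%, 89.9% and 93% of these windows, and in all 5 receptor windows. The combination covered more than ATRA in 90.5% of windows and more than Corin in 78.3%, and again in all 5 receptor windows. After ATRA and after ATRA+Corin all 5 receptor genes lay above the median window, and 4 of 5 above the upper quartile (1.22 and 1.64), CSF3R being the exception. After Corin 4 lay above both the median and the upper quartile (1.41), and CSF3R, at 1.09, lay below the median. Leaving out regions on a start site or exon of other genes raised the summed ratios to 1.43, 1.60 and 2.06. This also left out the IL6R start region, which overlaps an exon of the antisense gene IL6R-AS1. The same was not done for all windows, so these ratios have no background beside them.

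**Figure D3:**
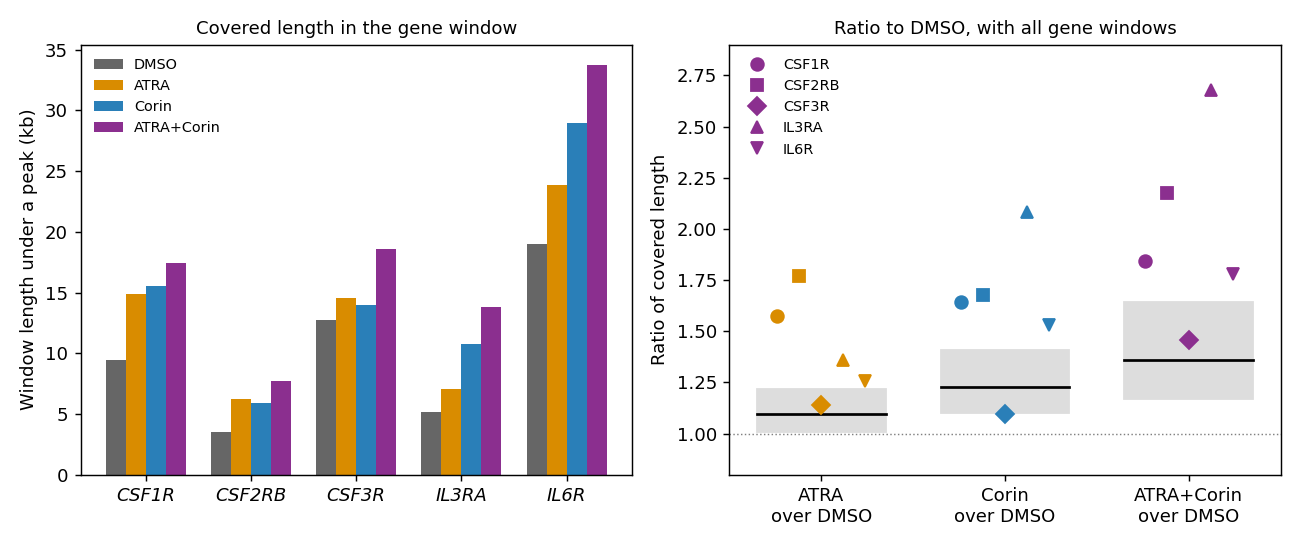
Left, length of each gene window under a peak (kb, bars from 0) in the 4 lists; right, the ratio of that length to DMSO for each gene (symbols), with the median (line) and the range from lower to upper quartile (grey box) over 17459 protein-coding gene windows. The DMSO bar is the shortest for each gene, and IL3RA reaches 2.68 and CSF2RB 2.17 times DMSO after ATRA+Corin, above the box.

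The canonical start sites of all 5 genes were under a peak in all 4 lists. Start sites of 47.3% of all protein-coding genes were under a DMSO peak, 48.1% under an ATRA peak, 38% under a Corin peak and 38% under an ATRA+Corin peak, and 30.8% in all 4. The genes have 12 annotated start sites, and 10 were under a peak in every list. The other 2 were under none in any list: the start of the longer CSF1R transcript at −26.8 kb (chr5:150113372, a minus sign meaning upstream of the canonical start) and a CSF2RB start 8.51 kb downstream (chr22:36922134).

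**Figure D4:**
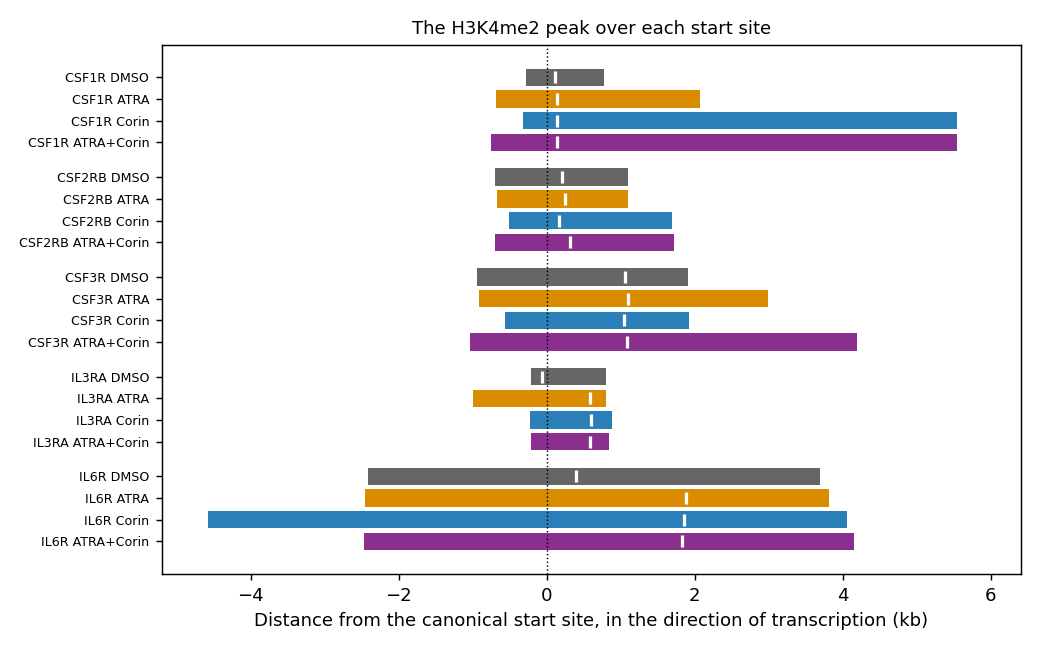
Extent of the peak over each canonical start site (bars) in the 4 lists, in kb from the start site in the direction of transcription, with the summit as a white tick. The CSF1R peak reaches 769 bp downstream in the DMSO list and 5536 and 5541 bp in the Corin and ATRA+Corin lists, while the CSF2RB and IL3RA peaks stay within 2 kb in every list.

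CSF1R (ENSG00000182578.14, chr5:150053291-150113372, minus strand, canonical start 150086554) changed most in the extent of its start peak. The DMSO list held 3 separate peaks between the start and intron 1, of 1051 bp over the start, 279 bp and 1496 bp, the last with its summit 4351 bp downstream. The ATRA list held 2, of 2746 bp over the start (fold 29.3) and 3407 bp in intron 1 (fold 35.7, −log10 q 139). The Corin list and the ATRA+Corin list held a single peak each, of 5861 and 6299 bp, that joined the start to the intron 1 site. The start peak thus ended 769, 2063, 5536 and 5541 bp downstream in the order DMSO, ATRA, Corin, ATRA+Corin, whereas the median over all covered start sites was 1649, 1726, 1940 and 2018 bp. The intron 1 sequence printed above lies under a peak in all 4 lists, so the treatments differ there in extent and not in presence.

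The body of CSF1R was touched by 6 regions, counting the start. A region on an exon of the gene HMGXB3, which only touches the end of CSF1R, was held by all 4 lists (812, 393, 820 and 398 bp). Its DMSO and Corin peaks reach into the CSF1R body, and its ATRA and ATRA+Corin peaks lie outside it. Those in introns 9 to 10 (chr5:150064096-150069567) and intron 14 (chr5:150058301-150059683) were held by all 4 lists. The larger covered 3669, 4508, 4956 and 4848 bp, with the Corin signal called as 3 peaks, and the smaller 287, 303, 706 and 1383 bp. A short intron 10 region (chr5:150062244-150062678), 24.05 kb downstream, was called after ATRA (221 bp, −log10 q 7.27) and after ATRA+Corin (435 bp, −log10 q 4.99). The upstream intron region (chr5:150106318-150106827) lies at −19.9 kb, in an intron of the longer transcript only, and was held by ATRA+Corin alone (510 bp, fold 5.87, −log10 q 8.45). In the far upstream part of the window, 3 regions lay on exons of PDGFRB, the neighbouring receptor tyrosine kinase for PDGF. Of these, chr5:150121892-150122572 was held by each treated list (637, 640 and 529 bp) and not by DMSO. The covered length of the whole window was 9.47, 14.9, 15.5 and 17.5 kb, a ratio to DMSO of 1.57 after ATRA, 1.64 after Corin and 1.84 after both.

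CSF3R (ENSG00000119535.20, chr1:36466043-36483278, minus strand, start 36482913) had the strongest start peaks among the 5 genes after DMSO and ATRA. The start peak was 2845 bp long in the DMSO list (fold 47.4), 3904 bp in the ATRA list (fold 56.5, −log10 q 351), 2485 bp in the Corin list (fold 26.4) and 5223 bp in the ATRA+Corin list (fold 22.98). By −log10 p it ranked at or above 98.2%, 98.7%, 97.5% and 96.1% of the peaks of its own list, and the summit lay 1049 to 1097 bp downstream in intron 1. A region at −4.08 kb (chr1:36485391-36487976) was held by all lists with 2016, 2270, 2114 and 2574 bp. The gains were small. A region at the end of the gene in exon 17 (chr1:36465606-36466572) appeared after ATRA (836 bp in 2 peaks, −log10 q up to 3.64) and after ATRA+Corin (963 bp, −log10 q 8.23). It lies next to the start-site region of the neighbour MRPS15 (chr1:36462376-36465526), which all lists held. Upstream, ATRA+Corin alone gave a peak of 317 bp at −6.11 kb (chr1:36489008-36489324, −log10 q 1.65) and of 401 bp at −28.6 kb (chr1:36511228-36511628, −log10 q 8.40). Downstream of the gene, 4 regions in or on the neighbours MRPS15 and OSCP1 were held by all lists. The covered length was 12.75, 14.5, 13.96 and 18.6 kb, and its ratio to DMSO of 1.14, 1.09 and 1.46 was the lowest of the 5 genes for each treatment.

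CSF2RB (ENSG00000100368.15, chr22:36913628-36940439, plus strand, start 36913628) had the least coverage after DMSO and the most regions gained after the combination. The DMSO list held 4 regions of its window, ATRA 7, Corin 6 and ATRA+Corin 9, of which 1 was held by DMSO and Corin through peaks just outside the window. The lengths covered were 3.54, 6.26, 5.93 and 7.69 kb. Within the gene, the start was the only region held after DMSO and after Corin. Its peak was 1790 bp long with the vehicle, 1775 bp with ATRA, 2204 bp with Corin and 2423 bp with both. ATRA and ATRA+Corin added the intron 1 region at 8.13 kb (chr22:36921362-36922050), with 689 bp after ATRA (fold 5.99, −log10 q 9.22) and 641 bp after both (fold 5.05, −log10 q 6.57). They also added the intron 13 region at 23.4 kb (chr22:36936535-36937133), with 493 bp after ATRA (fold 5.54, −log10 q 7.38) and 599 bp after both (fold 5.68, −log10 q 8.45). Both lie away from exons of other genes, and both pass a −log10 q of 5 in each list that holds them. The intron 1 region ends just before the downstream start site that no peak covered. A further intron 1 peak of 207 bp at 2.04 kb (chr22:36915587-36915793) was called in the ATRA+Corin list alone, with a −log10 q of 4.99.

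The upstream side of the CSF2RB window reaches NCF4, which encodes a subunit of the phagocyte NADPH oxidase. A region on an NCF4 exon (chr22:36863785-36864907) was held after ATRA (1050 bp, −log10 q 8.29) and after ATRA+Corin (700 bp in 2 peaks), and it lies next to the NCF4 start-site region, of which 19 bp fall inside the window and which all lists held. In the stretch between the genes, chr22:36881025-36881970 was held after Corin (882 bp, −log10 q 5.49) and ATRA+Corin (674 bp in 2 peaks), and chr22:36882020-36882623 after Corin alone (604 bp, fold 6.90, −log10 q 11.8).

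IL3RA (ENSG00000185291.12, chrX:1336616-1382689, plus strand, start 1336785) lies in the pseudoautosomal region, where the X and Y copies are alike. How the aligner placed reads from such copies is not given in the sources used here, and no peak of the lists was on chromosome Y. Counts without IL3RA were therefore also made. The gene had the largest ratio of covered length after Corin (2.08) and after both agents (2.68), with 5.17, 7.04, 10.8 and 13.8 kb covered in the 4 lists, and its ratio after ATRA was 1.36. Coverage grew around the start, in the introns and in the regions farther upstream. The peak over the start itself had nearly the same length after DMSO, Corin and both (1013, 1106 and 1057 bp) and was longer after ATRA (1809 bp). The signal just upstream was 3 peaks of 305, 256 and 459 bp in the DMSO list and a single peak of 3971 bp in the ATRA+Corin list. In intron 1 (chrX:1337867-1340513) the peak was 1036 bp long with DMSO and 1033 bp with ATRA, and 2609 bp with Corin and 2642 bp with both, so the lists with Corin held the long form.

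Regions that IL3RA gained were all intronic. The intron 6 region (chrX:1355145-1356131), 18.8 kb downstream, was held after Corin (899 bp, fold 5.22, −log10 q 10.7) and after ATRA+Corin (968 bp, fold 11.1, −log10 q 39.4). In the ATRA+Corin list this was the highest −log10 q among the 21 receptor regions that lacked a DMSO peak. Beside it, chrX:1354627-1354970 (344 bp, −log10 q 5.81) and, in intron 10, chrX:1380005-1380914 (910 bp, −log10 q 4.204) were held by ATRA+Corin alone. No gain was called after ATRA. The 3 regions between −20.2 and −14.1 kb were held by all lists. The farthest covered 623, 828, 1035 and 811 bp and the next 1201, 1283, 1618 and 1731 bp. The nearest covered 277, 757, 1324 and 1409 bp. The IL3RA window overlaps that of CSF2RA, the GM-CSF receptor alpha chain.

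IL6R (ENSG00000160712.13, chr1:154405193-154469450, plus strand, start 154405343) was the most heavily marked of the 5, with 11, 14, 16 and 15 regions and 18.98, 23.9, 29.01 and 33.7 kb covered. Its start peak was broad in every list, at 6112, 6268, 8625 and 6623 bp. By −log10 p this peak ranked at or above 98.1%, 96.2%, 98.01% and 95.5% of the peaks of its own list. An antisense gene, IL6R-AS1, starts under the same region, and H3K4me2 peaks carry no strand. Of 12 regions in the body, 9 were held by all lists. Several of these were longer after the combination. The region in intron 8 (chr1:154452546-154455687) covered 783, 1412, 983 and 3142 bp, that in intron 9 (chr1:154455812-154457515) 502, 1097, 657 and 1704 bp, and that in intron 6 (chr1:154438443-154441012) 948, 1247, 1976 and 2423 bp. In intron 1, at 14.6 kb (chr1:154418160-154421839), the strongest IL6R site outside the start covered 2409, 2541, 3368 and 3679 bp, with a fold of 23.8, 34.8, 32.0 and 43.5 within the respective lists. Its −log10 q in the Corin and ATRA+Corin lists (152 and 178) was above that of the start peak (142 and 150).

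The IL6R upstream site at −13.6 kb (chr1:154391532-154392220) was held by each treated list, with 360 bp after ATRA (−log10 q 2.42), 596 bp after Corin (7.42) and 683 bp after both (fold 8.73, −log10 q 19.2), and was absent after DMSO. The region at the far upstream edge of the window, at −50.5 kb (chr1:154353242-154355543), was held by the same lists, with 201 bp of its 2302 bp inside the window. Its peaks covered 1696 bp after ATRA, 1469 bp after Corin and 1881 bp after both. The Corin peak there ends just outside the window. Introns 1 (chr1:154427291-154427831) and 3 (chr1:154430907-154431585) each gained a region after Corin and ATRA+Corin, with −log10 q of 4.88 and 9.13 in the Corin list and 3.10 and 2.02 in the ATRA+Corin list. By −log10 p the ATRA+Corin peaks ranked at or above 14.3% and 4.97% of the peaks of their list. The intron 3 region lies right next to a region (chr1:154431596-154434248) that all 4 lists held. Corin alone gave a 309 bp peak at −7.06 kb (chr1:154398135-154398443, −log10 q 5.44), and ATRA alone a 427 bp peak in intron 6 (chr1:154437670-154438096, −log10 q 2.45).

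Across the 5 genes, 29 of the 54 regions touched the gene's own body, 5 of them over its start, and 5 regions lay on a start site of another gene. The body regions included 5 of the 9 gained after ATRA, 3 of the 9 after Corin and 11 of the 18 after both. Some gained regions held only weak peaks, the fewest of them after Corin. Of the 9, 9 and 18 gains against DMSO, 6, 8 and 11 had a peak with a −log10 q of at least 5, and 37, 43, 47 and 48 of all member peaks passed that level in the 4 lists. With this level required in every list, the combination against DMSO gave 12 gained regions of 44 (27.3%) beside 28.0% over all windows. ATRA against DMSO then gave 17.9% beside 17.5%, so the excess of ATRA gains over the background was not seen among the stronger peaks, and Corin against DMSO gave 22.0% beside 19.0%.

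The ligands, partner chains and signal carriers of these receptors were followed as a list of 35 genes, all found in the annotation. Of these, 19 gained a region after ATRA, 23 after Corin and 33 after both (42%, 54% and 67.8% of all gene windows did), while 10, 15 and 7 lost a region (24.8%, 25.8% and 20.3% of all windows). Some of the windows overlap, such as those of IL3 and CSF2 and those of STAT5A and STAT5B. The same region can therefore count for more than 1 gene. The median net change was 0, 0 and 2 regions per gene, beside 0, 0 and 1 over all protein-coding genes and 2, 1 and 3 over the 5 receptor genes. The start site was under a peak for 25, 22, 20 and 17 genes in the 4 lists (47.3%, 48.1%, 38% and 38% of all protein-coding genes). It was covered in all 4 lists for 1 of 7 ligands (IL6), 3 of 11 other receptors and 11 of 17 signalling genes.

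LYN, a Src-family kinase of myeloid cells, had the largest net gain after both agents, from 11 regions after DMSO to 22, with 13 after ATRA and 16 after Corin. IL1RAP, the accessory chain of the IL-1 receptor, had 5, 9, 8 and 12 regions, and IL4R, the IL-4 receptor alpha chain, 5, 8, 9 and 12. IL10RA, the IL-10 receptor alpha chain, had 12, 13, 12 and 18. GRB2, the adaptor that links receptor kinases to RAS, had 15, 15, 19 and 21. At the low end, SOCS1, a feedback inhibitor of JAK kinases, had 14, 11, 11 and 12 regions. The CSF1R ligand IL34 had 1, 1, 0 and 1, and CSF3, the ligand of CSF3R, had 7 in each list. The net change after both agents was 0 for IL34 and CSF3, as it was for IL5RA and for SHC1, an adaptor with 12, 13, 14 and 12 regions.

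Of the partner chains, CSF2RA had 7, 7, 7 and 8 regions, with its start under a peak in every list but ATRA, and it shares regions with IL3RA. IL5RA, the IL-5 receptor alpha chain, had 1 region in each list and an uncovered start. IL6ST, the signalling partner of IL6R, had 2, 2, 4 and 4 regions, and its start was under a peak after DMSO and ATRA and under none after Corin and after both. IL6R and its partner thus differed at their start sites in the lists with Corin. Fewer start sites were covered in these lists over all protein-coding genes too, 38% in each beside 47.3% after DMSO and 48.1% after ATRA.

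Genes whose covered length was spread over the 4 lists most like that of each receptor were found by the sum of absolute differences of the 4 shares, over 4 lists and with no region in common. For CSF1R, whose shares were 16.5%, 26.0%, 27.1% and 30.4%, they were FRY (0.00839) and RFPL2 (0.0116). For CSF2RB (15.1%, 26.7%, 25.3% and 32.8%) they were ACER3 (0.00864) and PRDM13 (0.0173). For CSF3R (21.3%, 24.3%, 23.3% and 31.1%) they were MAGOH (0.00889) and IBA57 (0.0113), for IL3RA (14.04%, 19.1%, 29.2% and 37.6%) ARFIP1 (0.0190) and APH1B (0.0215), and for IL6R (17.98%, 22.6%, 27.5% and 32.0%) the gene given here is IQGAP1 (0.00760). Between 5173 and 10066 genes of similar covered length were compared for each receptor, so close matches of 4 shares are not rare.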

How the data were processed

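H3K4me2 ChIP-seq peaks of U-937 cells were taken as deposited, 1 pooled list for each treatment. Trimmomatic, Bowtie2, Picard, MACS2 and the build hg38 are named in the submitters' processing notes, without versions or settings. The authors gave each peak a score, a fold enrichment over input (a ratio), a −log10 p, a −log10 q and a summit offset. The counting of reads and the rule for joining replicates are not given in the sources used here.

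Overlapping or touching peaks were joined into regions. Windows, start sites and introns came from GENCODE release 44. Scripts ran in Python 3.11.15 and were tested on simulated data. Depth was recovered by solving fold and p of each peak with a −log10 p under 60 for whole fragments, which succeeded for 100% of them. None of the peaks passed a chromosome end, and 47.3% of start sites lay under a DMSO peak against 4.60% after a shift of 1 Mb. Among the 30000 strongest peaks of each list, 18, 16, 22 and 17 peak numbers were missing, so a few strong regions are not analysed here.

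The genes, lists and measures were chosen with earlier results of these data known. Always named were the 5 genes, every region of theirs whose presence differed, the start region and the strongest ATRA+Corin region. Of 35 pathway genes, the 5 highest and 3 lowest net gains after both agents, ties in listed order, were named, with CSF2RA, IL5RA and IL6ST. For each receptor the 2 genes most like it in covered length were sought, and 1 of these 10 is not reported here. Alternatives covered the q level, list length, depth, merging, overlap and window.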

Additional observations from a re-analysis of the deposited data

How the results depend on the processing

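No paired analysis was possible because each treatment has 1 pooled list, and leaving out a replicate could not be run for the same reason. The spread between cultures is unknown, and a region counted as gained may be a weak signal just under the calling threshold in the other list. Of 140 alternative region counts, 99 stayed within 1.5 times of the main count and 41 did not. Of 24 alternative length ratios, 5 were equal to the main ratio at 3 digits and 19 were not, and 0 turned direction. They ran from 1.25 to 1.43 after ATRA, from 1.43 to 1.60 after Corin and from 1.66 to 2.06 after both. The counts that follow are for the 5 receptor genes. The cause of these moves was not tested, beyond what each setting itself removes or adds.

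With a −log10 q of at least 5 in every list, the regions lost against DMSO rose from 0 to 2 after ATRA, 1 after Corin and 1 after both, those lost after both agents became 2 against ATRA and 4 against Corin, and those gained against Corin fell to 7. The summed length ratios to DMSO were then 1.35, 1.56 and 1.85. With that level required only of the peak itself, both agents gained 11 regions against DMSO, 5 against ATRA and 6 against Corin, and lost 0 against ATRA. With equal numbers of peaks in each list, both agents gained 6 against ATRA and lost 4 against Corin, and the length ratios were 1.503 after Corin and 1.75 after both. Peaks within 1 kb merged gave 6 gained after ATRA, 7 after Corin and 13 after both against DMSO, beside 9, 9 and 18 without this merging. For both agents they gave 7 gained and 1 lost against Corin, and 0 lost against ATRA.

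Counting single peaks in place of regions gave 15 gained and 2 lost after ATRA against DMSO. Counting peaks under 50% covered by the other list gave 18 gained and 3 lost after ATRA, 22 gained after Corin, and 34 gained and 1 lost after both, 19 gained against ATRA and 4 lost against Corin.

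The gene body with 10 kb around the start gave 5 gained after ATRA and 4 after Corin, 1 lost after both against Corin, and length ratios of 1.34, 1.54 and 1.96. The body alone gave 5, 3 and 11 gained, 0 lost against Corin, and ratios of 1.39, 1.57 and 2.00. A window of 100 kb gave 15 gained and 4 lost after ATRA, 20 and 4 after Corin, 31 and 2 after both, 21 and 3 for both against ATRA, 21 and 8 for both against Corin, and ratios of 1.25, 1.43 and 1.66. Without regions on a start site or exon of another gene, the IL6R start region among them, the ratios were 1.43, 1.60 and 2.06. Without IL3RA they were 1.44 after Corin and 1.73 after both. Fragments thinned to the shallowest list, without calling peaks anew, left 9, 9 and 18 gained against DMSO. The requirement that a region's midpoint lie inside the window, added after the data were seen, gave 8, 8 and 17. Counting only peaks that reach into the window, also added after the data were seen, gave 10, 8 and 19.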
